A study of Mus musculus with 4 samples.

Results

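Histone and DNA modifying enzymes were followed in group 3 innate lymphoid cells (ILC3s) of the mouse, kept in medium or stimulated with TL1A. The genes were taken by name: a symbol had to consist of Kdm, Kmt, Kat, Hdac, Sirt, Setd, Ezh, Prmt, Dnmt or Tet, a number and at most 1 further letter. This gave 76 genes of 24343 in the table: 18 lysine demethylases, 17 lysine methyltransferases, 8 lysine acetyltransferases, 11 zinc-dependent deacetylases, 7 sirtuins, 8 arginine methyltransferases, 4 DNA methyltransferases and 3 Tet dioxygenases. Of these, 55 had enough reads to be tested.

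All 4 libraries came from animals of genotype IL23R-GFP/WT, in which 1 copy of the IL-23 receptor locus carries a GFP reporter, and from cells sorted as Lin- CD127+ IL23R-GFP+. ILC3s are lymphocytes without antigen receptors that defend mucosal surfaces. The medium group (2 libraries, those whose titles name no TL1A) received no TL1A, and the TL1A group (2 libraries) received TL1A, a TNF family ligand of the receptor DR3. Age, sex, dose and duration are not in the labels, and whether the 2 libraries of a group stem from different animals is not stated, so the spread behind every p-value may be purely technical.

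Histone tails carry acetyl and methyl groups that are written, removed and read by separate protein families. Acetyltransferases (Kat) add the acetyl mark of active genes, and deacetylases (Hdac and the NAD-dependent sirtuins) remove it. Lysine methyltransferases (Kmt, Setd, Ezh) and demethylases (Kdm) act on single residues: methylation of H3K4 and H3K36 goes with active genes, and that of H3K9 and H3K27 with silent ones. Dnmt enzymes methylate cytosines in DNA and Tet enzymes oxidise that mark. In lymphocytes these families are known for holding lineage programmes in place and for opening effector genes on activation.

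The libraries held 11495636 and 12222552 assigned reads in medium and 11849977 and 12605164 with TL1A. Levels are counts per 1e6 reads (CPM) on TMM-scaled library sizes. Markers of the sorted cells were present, and they moved between the groups. Il7r (CD127) had 3552 and 3661 CPM in medium and 1209 and 1191 CPM with TL1A, and Il23r 1007 and 996 against 663 and 632 CPM, whereas Kit had 1 read in all. Of 11 ILC3 markers, all with reads, 10 were tested, 3 rose and 5 fell. The tested markers had a median log2 fold change of -0.42 (-1.61 to 7.19). The summed level of all 11 was 7869 and 8197 CPM in medium and 12731 and 12795 CPM with TL1A, so that the sum rose although the median was below 0. Markers of other cells moved too. The summed level of 10 myeloid markers (8 with reads) was 1649 and 1822 CPM in medium and 746 and 731 CPM with TL1A. That of 6 B cell markers (3 with reads) was 154 and 167 against 849 and 777 CPM. For 8 ILC1 and NK cell markers (7 with reads) it was 27.6 and 24.5 against 468 and 443 CPM. For 7 ILC2 markers (all with reads) it was 64.3 and 74.7 against 164 and 150.2 CPM. Members of a list did not all move alike. Of 6 tested ILC2 markers 1 rose and 2 fell, with a median log2 fold change of -0.018 (-2.37 to 2.29). Of 7 tested myeloid markers 1 rose and 3 fell, and of 5 ILC1 and NK cell markers 2 rose and 1 fell. Of 2 tested B cell markers 2 rose. Over all genes 20.6% rose and 21.7% fell. The 8 T cell markers (7 with reads) summed to 142 and 125 CPM in medium and 106 and 122 CPM with TL1A. Of 4 tested T cell markers 0 rose and 1 fell. Reads were 0 for Ms4a1, Pax5, Eomes, Itgam, S100a9 and Cd8a in every library. The part of such cells in the results was not tested, and fewer cells of a type cannot be told apart from less RNA per cell in bulk libraries.

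Whether a gene could be measured went with how many transcript rows it has in the deposited table. Reads were counted per RefSeq transcript, and a read in an exon that several transcripts share was set aside as ambiguous. Of the 45 enzyme genes with 1 row, 43 were tested, and the median of their mean reads per library was 882. Of the 31 with several rows, 12 were tested, and that median was 2.75. Over all named genes, 44.3% with 1 row and 24.1% with several rows had a mean of at least 10 reads.

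**Figure D1:**
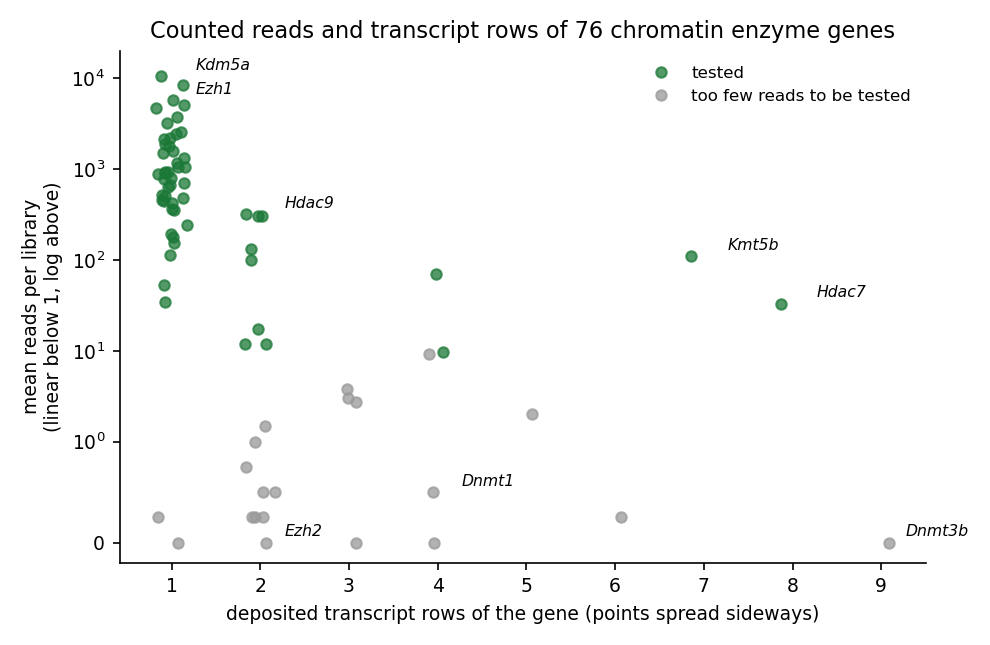
Mean reads per library (vertical axis, linear below 1 and logarithmic above) against the number of deposited transcript rows (horizontal axis) for the 76 enzyme genes; green points were tested and grey points had too few reads. The genes with 1 row have a median of 882 reads, while Ezh2, with 2 rows, and Dnmt3b, with 9, lie at 0.

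Several central enzymes were left out. Whether their few reads reflect low expression or ambiguous counting was not tested. Kmt2a, an H3K4 methyltransferase gene that fits the naming rule, matched no row and was not analysed here. Ezh2, the main H3K27 methyltransferase of dividing cells, had 0 reads over 2 rows. Dnmt1, which copies DNA methylation at replication, had 2 reads in all over 4 rows. The de novo methyltransferase genes Dnmt3a and Dnmt3b had 0 over 3 and 9 rows, and Dnmt3l, their cofactor, had 1 read over 6 rows. Further genes with several rows that could not be tested were Hdac5, Hdac6, Hdac10, Kat2a, Kat6b, Kat7, Kdm3a, Kmt2b, Kmt5c, Prmt1, Sirt1, Sirt2, Sirt3 and Sirt4, with 0 to 37 reads in all. Only Tet1 (1 read) and Prmt8 (0 reads) fell short on a single row. A count of 0 allows up to 0.225 to 0.279 CPM per library (3 reads on the TMM-scaled library size, counting error only), but for genes with several rows this limit holds for reads unique to a row and not for the gene.

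With TL1A the enzyme genes shifted in both directions, from a 3.88-fold lower mean (Hdac9) to a log2 fold change of 0.67 (Setd3) among those that passed. Of the 55 tested enzyme genes, 7 rose and 12 fell (p from edgeR's quasi-likelihood test, adjusted by Benjamini-Hochberg over 9852 genes, threshold 0.05), and 36 did not pass. The share that passed was 34.5%, against 42.3% of all genes tested; by direction, 12.7% rose against a background of 20.6%, and 21.8% fell against 21.7%. The change passed and was at least 2-fold for 3 of the 55 (Hdac9, Kdm7a and Kdm1a, all lower), or 5.45%. Of all genes, 19.4% passed with a change that large. The median size of the log2 fold change, either way, was 0.38 for the enzyme genes and 0.44 for all genes, and the signed medians were -0.0029 and -0.03. The groups did not overlap in CPM for 39 of the 55 (70.9%), with a background of 72.2%. Among genes with 1 row, 41.9% of enzyme genes passed, with 44.4% of all such genes.

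The split of directions depended on the scaling. With library size alone, which moved the median log2 fold change of all genes by -0.26, 1 enzyme gene rose and 22 fell (all genes 1310 and 3475, against 2027 and 2141 with TMM). No enzyme gene that passed changed sign under any of 11 alternatives. Those that passed under all 11 were 6: Ezh1, Hdac9, Kdm1a, Kdm7a and Kmt2e, which fell, and Setd3, which rose. Without TL1A replicate 1 or without TL1A replicate 2 the count of lower genes was 7 in each case.

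**Figure D2:**
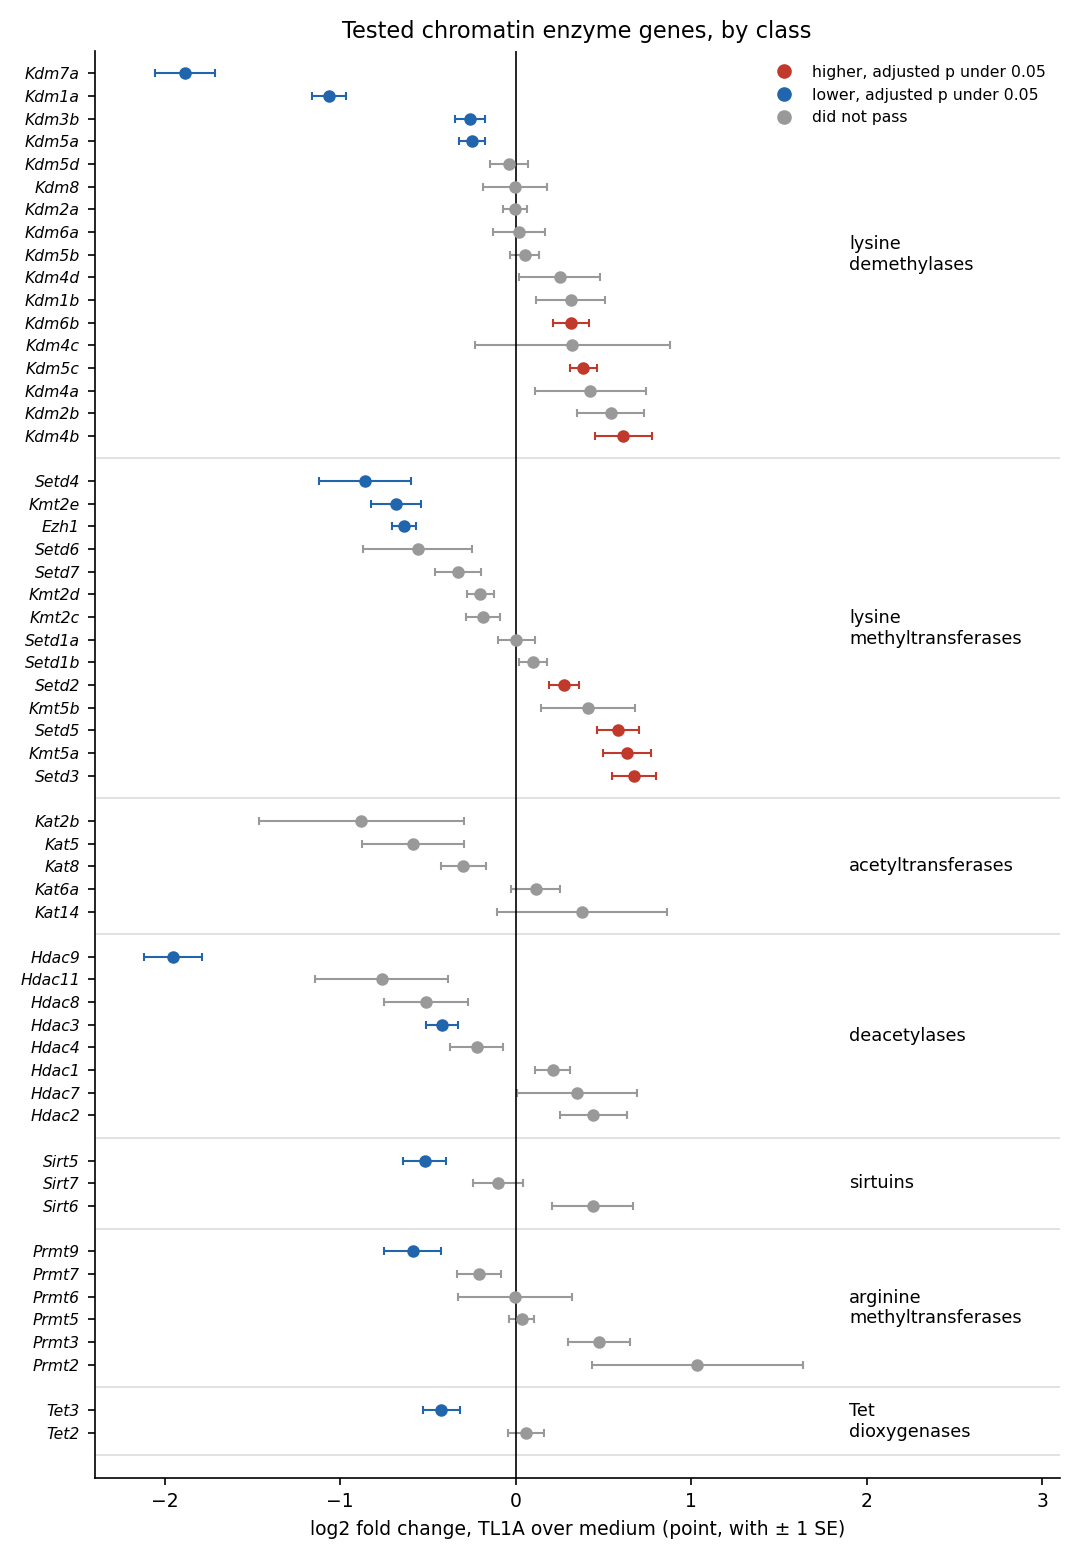
The log2 fold change of TL1A over medium with 1 SE (horizontal axis) for the 55 tested enzyme genes (vertical axis, grouped by class); red rose, blue fell and grey did not pass. Kdm7a and Hdac9 lie near -1.9, and the gene farthest to the right among those that rose is Setd3 at 0.67.

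Demethylases of repressive and of activating marks were among the genes that fell. Kdm7a, whose product removes methyl groups from H3K9 and H3K27, had 134 and 130.2 CPM in medium and 42.3 and 29.1 CPM with TL1A. Both stimulated libraries lay far below both medium libraries, a 3.69-fold lower mean (log2 fold change -1.89, SE 0.17, adjusted p = 0.000117). Kdm1a, which encodes LSD1, a demethylase of mono- and dimethylated H3K4 that works with the CoREST corepressor, had 131 and 126 CPM in medium and 62.5 and 60.4 CPM with TL1A. It fell by 1.06 on the log2 scale (SE 0.09, adjusted p = 0.000112), and the gap between the groups was far wider than that between replicates.

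The starts of the genes that fell at least 2-fold differed in composition, and are shown for that reason together with a pair of genes whose windows hold a searched motif. Each run is the 250 bases before a RefSeq start site on the gene's strand (assembly GRCm38.p6), in lower case with any motif match in capitals. Both Hdac9 starts are given.
Kdm7a, chr6:39206774-39207023, minus strand: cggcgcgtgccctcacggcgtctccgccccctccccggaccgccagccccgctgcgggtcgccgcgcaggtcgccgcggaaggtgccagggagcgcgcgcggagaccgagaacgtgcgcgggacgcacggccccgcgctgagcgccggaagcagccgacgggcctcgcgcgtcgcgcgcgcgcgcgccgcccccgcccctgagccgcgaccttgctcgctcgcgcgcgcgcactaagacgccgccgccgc
Kdm1a, chr4:136602724-136602973, minus strand: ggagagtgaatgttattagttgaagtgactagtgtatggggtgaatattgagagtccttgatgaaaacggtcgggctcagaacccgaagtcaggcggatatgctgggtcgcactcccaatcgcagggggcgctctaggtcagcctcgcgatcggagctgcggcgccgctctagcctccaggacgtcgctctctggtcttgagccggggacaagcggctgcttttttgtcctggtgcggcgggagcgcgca
Hdac9, chr12:34528890-34529139, minus strand: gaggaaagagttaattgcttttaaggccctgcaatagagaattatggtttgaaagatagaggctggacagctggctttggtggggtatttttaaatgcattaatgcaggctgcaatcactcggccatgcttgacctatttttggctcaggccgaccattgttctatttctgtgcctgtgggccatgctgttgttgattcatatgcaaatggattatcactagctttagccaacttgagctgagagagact
Hdac9, chr12:34917096-34917345, minus strand: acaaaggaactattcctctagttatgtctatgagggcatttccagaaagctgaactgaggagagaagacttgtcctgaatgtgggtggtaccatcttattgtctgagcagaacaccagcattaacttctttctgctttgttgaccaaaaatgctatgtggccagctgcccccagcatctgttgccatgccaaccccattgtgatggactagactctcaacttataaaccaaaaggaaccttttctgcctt
Kdm5c, chrX:152232977-152233226, plus strand: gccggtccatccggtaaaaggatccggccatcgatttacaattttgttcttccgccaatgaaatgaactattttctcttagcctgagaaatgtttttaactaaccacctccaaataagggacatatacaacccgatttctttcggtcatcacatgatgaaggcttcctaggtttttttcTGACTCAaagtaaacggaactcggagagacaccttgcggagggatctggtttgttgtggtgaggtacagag
Setd4, chr16:93603816-93604065, minus strand: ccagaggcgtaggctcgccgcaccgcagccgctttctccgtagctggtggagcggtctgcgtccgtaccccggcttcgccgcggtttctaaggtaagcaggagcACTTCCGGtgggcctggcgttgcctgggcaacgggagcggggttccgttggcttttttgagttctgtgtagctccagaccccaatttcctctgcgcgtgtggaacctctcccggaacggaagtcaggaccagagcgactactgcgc

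The Kdm7a window held 82% G and C with 56 CG pairs, that of Kdm1a 59.2% with 21, and those of Hdac9 43.6% with 2 and 44.4% with 0. Over the 91 windows of 64 enzyme genes in the RefSeq table the median was 61.2% G and C with 16 CG pairs, against 52.4% and 6 over 32851 windows of all genes. The motifs searched on both strands were GGGA followed by any base and TTTCC (NF-κB), TGACTCA (AP-1, which reads TGAGTCA on the other strand), CCGGAAGT (ETS) and GCGTGGGCG (EGR). The NF-κB and EGR forms had no match in the enzyme windows and matched 0.356% and 0.536% of all windows. Windows were at hand for 5 of the 7 enzyme genes that rose and 8 of the 12 that fell. Kdm4b and Kdm6b, which rose, and Hdac3, Kdm3b, Kdm5a and Kmt2e, which fell, had no window and were not searched. The AP-1 form matched 5 enzyme windows (5.49%, against 4.46% of all windows), of which only that of Kdm5c, 71 bases before the start, belongs to a gene that passed. The ETS form matched 3 enzyme windows (3.3%, against 2.88%), among them Setd4, 146 bases before the start on the opposite strand. A match is a string of letters, not a shown binding site.

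The other demethylase genes that passed changed less than 2-fold, and they moved in both directions. The Kdm5 genes encode H3K4 demethylases: Kdm5a fell from 984 and 895 CPM to 818 and 763 CPM (log2 fold change -0.25, SE 0.07, adjusted p = 0.0295), and X-linked Kdm5c rose from 191 and 178 CPM to 239 and 243 CPM (0.38, SE 0.08, adjusted p = 0.00596). Kdm5b (log2 fold change 0.05) and Y-linked Kdm5d (-0.04) did not pass, and the difference between the paralogs was not tested. Kdm4b, for H3K9 and H3K36, rose from 32.1 and 35.1 CPM to 44.6 and 58.2 CPM (0.61, SE 0.16, adjusted p = 0.0188). Kdm3b, for H3K9, fell from 198 and 189 CPM to 169 and 154 CPM (-0.26, SE 0.08, adjusted p = 0.0421). Kdm6b, the H3K27 demethylase known as JMJD3 and as a target of inflammatory signals, rose from 72.0 and 66.6 CPM to 87.9 and 84.5 CPM (0.32, SE 0.10, adjusted p = 0.0432), while its paralog Kdm6a had 138 and 107 CPM in medium and 112 and 136 CPM with TL1A, so that the groups overlapped (0.02, SE 0.15).

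In all, 3 of 17 tested demethylase genes rose, 4 fell and 10 did not pass, the last with log2 fold changes from -0.04 to 0.54. The share called, 41.2%, was near the 42.3% of all genes. Among the smaller changes, that of Kdm5c passed without each single library in turn, and other calls were lost. The Kdm3b call was lost without any 1 library (adjusted p 0.0679 to 0.287; 0.00185 to 0.287 over all alternatives), as was that of Kdm6b (0.057 to 0.178; 0.0238 to 0.675), Kdm5a was lost without medium replicate 1 (0.0566) or either TL1A library (0.0633 without replicate 1, 0.223 without replicate 2; 0.00106 to 0.223), Kdm4b without medium replicate 1 (0.0647) or TL1A replicate 2 (0.12; 0.00423 to 0.12). Without medium replicate 1 or either TL1A library, 2 demethylase genes fell. Kdm2b (0.54, SE 0.19, adjusted p = 0.0568) passed without medium replicate 1 (0.0173; 0.0118 to 0.265) and Kdm4a, with 39.1 and 19.5 CPM in the TL1A libraries, without TL1A replicate 2 (0.0132; 0.0132 to 0.699).

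**Figure D3:**
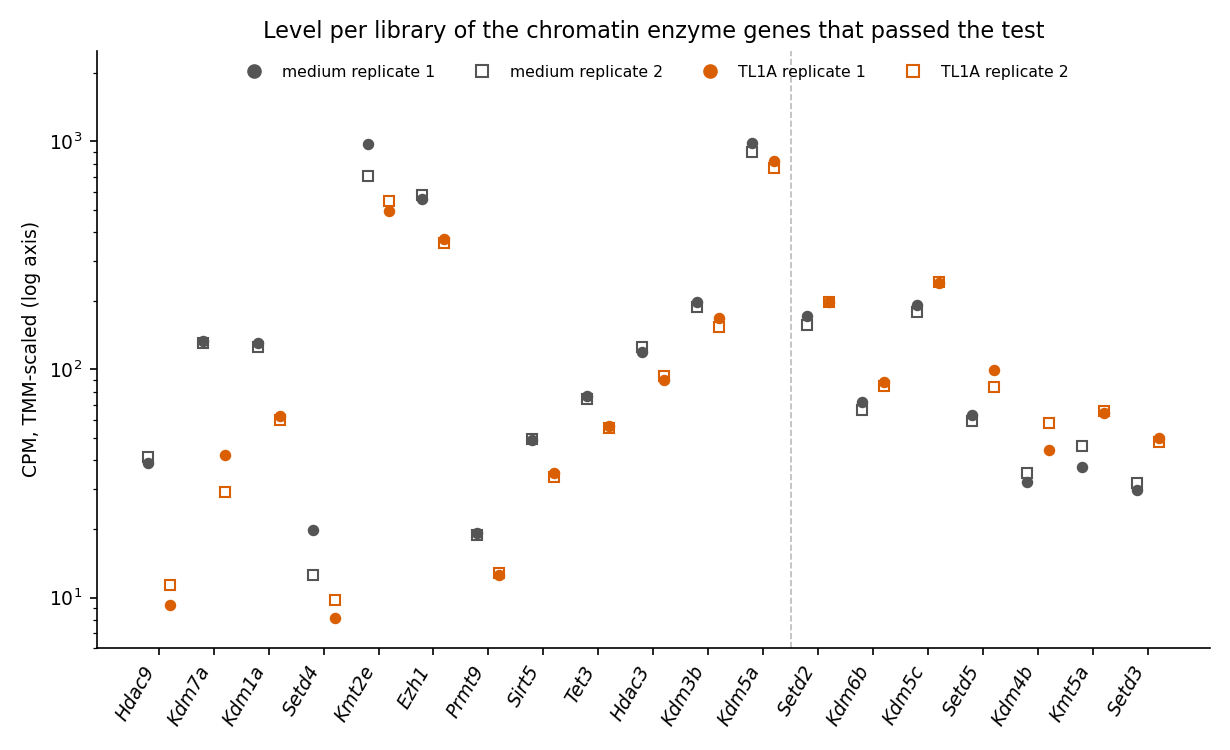
CPM in each of the 4 libraries (vertical axis, logarithmic) for the 19 enzyme genes that passed (horizontal axis, in order of log2 fold change); grey is medium, orange is TL1A, circles are replicate 1 and squares replicate 2. Left of the dashed line both TL1A libraries lie below both medium libraries for each of the 12 genes, and right of it they lie above for each of the 7.

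Among methyltransferases, Ezh1 and Kmt2e fell and Setd3, Kmt5a and Setd5 rose. Ezh1, the H3K27 methyltransferase of Polycomb complexes in resting cells, had 559 and 582 CPM in medium and 375 and 359.8 CPM with TL1A (log2 fold change -0.64, SE 0.07, adjusted p = 0.000252). The groups lay far apart relative to the spread within them. Kmt2e, an MLL family protein that binds methylated H3K4, had 979 and 703 CPM in medium and 497 and 551 CPM with TL1A (-0.68, SE 0.14, adjusted p = 0.00761), with a wide gap between the medium libraries. Setd3, known as the methyltransferase of an actin histidine, had 29.7 and 31.8 CPM in medium and 49.9 and 48.3 CPM with TL1A (0.67, SE 0.13, adjusted p = 0.00439). It was the largest increase that passed among the enzyme genes.

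Kmt5a, which monomethylates H4K20, rose from 37.5 and 46.2 CPM to 64.4 and 65.8 CPM (0.64, SE 0.14, adjusted p = 0.00809). Setd5 rose from 63.2 and 59.5 CPM to 99.9 and 84.0 CPM (0.58, SE 0.12, adjusted p = 0.00694). Setd2, which trimethylates H3K36, rose from 172 and 156 CPM to 198 and 198 CPM (0.27, SE 0.08, adjusted p = 0.0334), and Setd4 fell from 19.8 and 12.6 CPM to 8.09 and 9.74 CPM (-0.86, SE 0.26, adjusted p = 0.0335). Of 14 tested genes 4 rose (28.6%, against 20.6% of all genes), 3 fell (21.4%, against 21.7%) and 7 did not pass. Those 7 included Kmt2c (-0.19) and Kmt2d (-0.20), which mark enhancers, and the H3K4 methyltransferase genes Setd1a (0.0036) and Setd1b (0.10).

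The calls of Kmt5a, Setd5, Setd2 and Kdm5c were lost with library size alone (edgeR, adjusted p = 0.0549, 0.0555, 0.889 and 0.207). Those of Kdm4b (0.115) and Kdm6b (0.675) were lost with it too. Over all alternatives the adjusted p was 0.00125 to 0.0549 for Kmt5a, 0.00043 to 0.0555 for Setd5, 0.0111 to 0.889 for Setd2 and 0.000386 to 0.207 for Kdm5c. Setd2 was also lost without medium replicate 2 (0.0835) or either TL1A library (0.12 without replicate 1, 0.117 without replicate 2), and Setd4 without medium replicate 1 (log2 fold change -0.50, adjusted p = 0.18) or TL1A replicate 1 (0.105; 0.00681 to 0.18). Kmt2c and Kmt2d passed as lower without medium replicate 2 (0.0231 and 0.0248; 0.00737 to 0.605 and 0.00237 to 0.26), when 5 genes of the class fell, and Setd7 passed as lower without medium replicate 1 (0.0426; 0.00846 to 0.401).

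The deacetylase with a large change was Hdac9. Its product is a class IIa deacetylase, a family that binds MEF2 factors and has little enzyme activity of its own. Hdac9 had 39.0 and 41.3 CPM in medium and 9.3 and 11.4 CPM with TL1A, a 3.88-fold lower mean (log2 fold change -1.95, SE 0.17, adjusted p = 8.71e-05). Its 2 deposited rows fell alike: one went from 359 and 398 reads to 80 and 89 (-1.95, SE 0.17) and the other from 131 and 153 reads to 20 and 43 (-1.96, SE 0.33). Unequal change of rows was tested for 5 enzyme genes (Hdac9, Kat5, Kmt5b, Prmt6 and Sirt6), and none passed (edgeR diffSpliceDGE, adjusted p 0.393 to 0.9997; the unadjusted p was under 0.05 for Prmt6 alone, 0.0188). Over all 268 genes in that test, 1.12% passed.

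Hdac3, the enzyme of the NCoR and SMRT corepressors, fell from 119 and 126 CPM to 89.8 and 93.5 CPM (-0.42, SE 0.09, adjusted p = 0.00886). None of 8 tested Hdac genes rose in the edgeR test, at an unadjusted p under 0.05 or in DESeq2. By direction, 0% rose against 20.6% of all genes, and 25% fell against 21.7%. Hdac1, found in several corepressor complexes, had 78.7 and 85.5 CPM in medium and 95.7 and 94.2 CPM with TL1A (0.21, SE 0.10, adjusted p = 0.13), a sign that turned with library size alone. Hdac2 had 24.5 and 36.1 CPM against 42.0 and 40.4 CPM, and passed as higher without medium replicate 2 (0.78, adjusted p = 0.00852; 0.00852 to 0.465). Hdac8 had 41.9 and 45.1 CPM against 38.8 and 22.3 CPM, and passed as lower without TL1A replicate 1 (-0.95, adjusted p = 0.00402; 0.00402 to 0.571). The Hdac3 call was lost without TL1A replicate 1 (0.0637; 0.00094 to 0.0637). Hdac4, Hdac7 and Hdac11 did not pass either.

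Neither acetyltransferase nor DNA methyltransferase genes gave a call. Of 8 Kat genes 5 were tested and 0 passed, where 42.3% of all genes passed. At an unadjusted p under 0.05 there were 0, and in DESeq2 0. Kat6a, of the MOZ complex, had 203 and 187 CPM in medium and 243 and 179 CPM with TL1A, so that the groups overlapped. Kat8, which acetylates H4K16, had 41.8 and 39.8 CPM against 32.1 and 34.1 CPM (-0.30, SE 0.13, adjusted p = 0.101). Kat2b, Kat5 and Kat14 had 5 to 92 reads per library, with SEs of 0.29 to 0.58. No Dnmt gene was tested.

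Of the Tet genes, whose products start DNA demethylation, Tet3 fell from 76.2 and 73.9 CPM to 56.7 and 55.2 CPM (-0.42, SE 0.10, adjusted p = 0.0146), a call that was lost without TL1A replicate 1 (0.0617) or TL1A replicate 2 (0.088; 0.00155 to 0.088). Tet2 had 74.1 and 69.7 CPM in medium and 76.1 and 73.4 CPM with TL1A (0.06, SE 0.10, adjusted p = 0.692), and its groups overlapped. The difference between Tet2 and Tet3 was not tested.

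Sirtuins and arginine methyltransferases gave 1 decrease each, among 3 and 6 tested genes. The shares called were 33.3% and 16.7%, against 42.3% of all genes. Sirt5, a mitochondrial enzyme that removes succinyl groups, fell from 49.1 and 49.6 CPM to 35.1 and 33.8 CPM (-0.52, SE 0.12, adjusted p = 0.0119; 0.0688 without TL1A replicate 2, and 0.00174 to 0.0688 over all alternatives). The nuclear deacylase genes Sirt6 (0.44, SE 0.23) and Sirt7 (-0.10, SE 0.14) did not pass. Prmt9 fell from 19.2 and 18.9 CPM to 12.6 and 12.8 CPM (-0.59, SE 0.16, adjusted p = 0.0238), and its call was lost without any 1 library (0.0682 to 0.0906; 0.00469 to 0.126 over all alternatives). Prmt5, the main symmetric dimethyltransferase of arginine, had 261 and 269 CPM in medium and 271 and 272 CPM with TL1A (0.03, SE 0.07, adjusted p = 0.736). Prmt3 (0.47, SE 0.18, adjusted p = 0.0674), Prmt7 (-0.21), Prmt6 (-0.0055, summed over 2 rows) and Prmt2, with 5 to 14 reads per library, did not pass. The rows of Prmt6 had opposite signs. Tested by row in edgeR, its coding row rose by 1.67 (SE 0.44, adjusted p = 0.0194), on counts of only 12 to 49. Its non-coding row was at -0.60 (SE 0.38, adjusted p = 0.252). Unequal change of these rows did not pass (edgeR diffSpliceDGE, adjusted p = 0.393).

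Levels can be set against each other only per length, here as mean CPM per kilobase of the matched GENCODE transcript for the 43 tested genes with 1 row. In medium the highest was Ezh1 (136 ± 3.83 CPM per kb, SD, n = 2), followed by Kmt2e (116 ± 26.8), Prmt5 (98.5 ± 2.26) and Kdm5a (85.9 ± 5.74). With TL1A the order was Prmt5 (101 ± 0.313), Ezh1 (87.6 ± 2.49), Kmt2e (72.2 ± 5.19) and Kdm5a (72.2 ± 3.59). The gap between Kmt2e and each of Ezh1 and Prmt5 in medium, and that between Kmt2e and Kdm5a with TL1A, was within the spread of the libraries. Kdm1a went from rank 8 (42.7 ± 1.14 CPM per kb) to rank 18 (20.4 ± 0.505), and Kdm7a from rank 25 (13.8 ± 0.272) to rank 41 (3.74 ± 0.974). The lowest in both groups was Hdac11 (1.33 ± 0.202 and 0.782 ± 0.233).

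**Figure D4:**
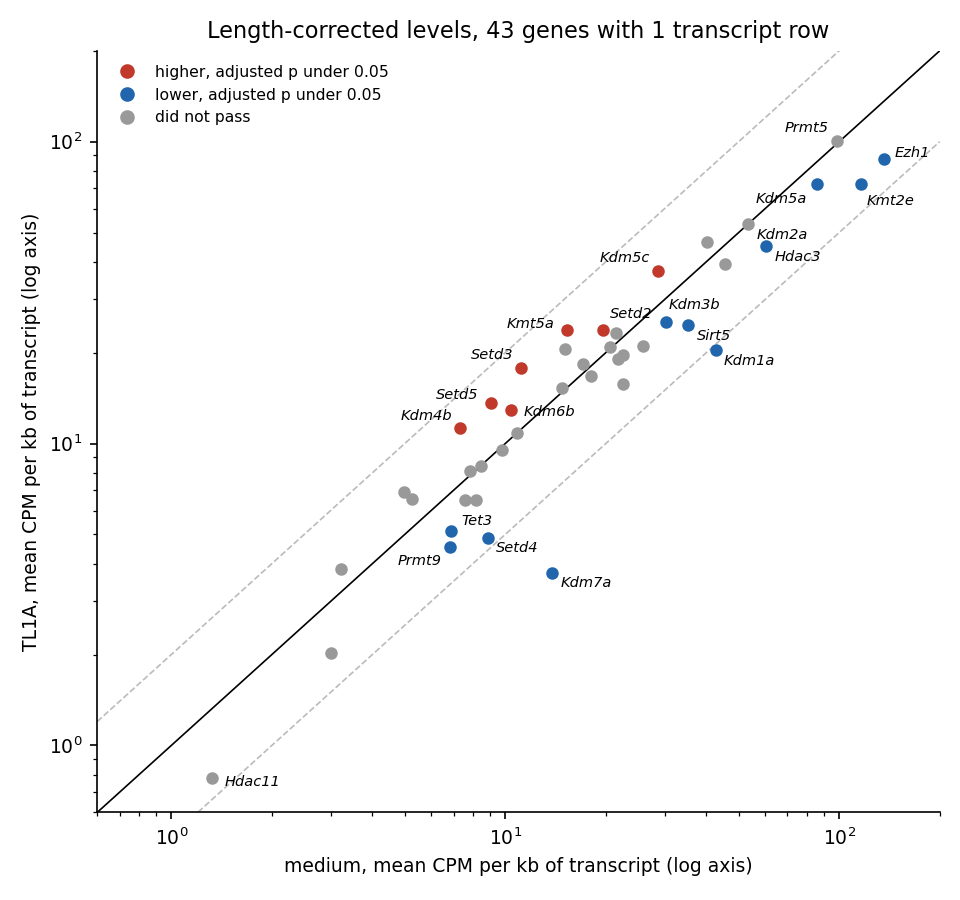
Mean level with TL1A (vertical axis) against medium (horizontal axis), both in CPM per kilobase of transcript on log axes, for the 43 tested enzyme genes with 1 transcript row; the solid line is equality and the dashed lines are 2-fold changes. Kdm7a and Kdm1a lie below the lower dashed line, and Prmt5 lies on the line of equality at about 100.

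Partner genes of the enzymes were read from lists grouped by function. The list of Polycomb subunits spans several complexes, of which not all hold Ezh1. In it 3 of 23 tested genes rose, 8 fell and 12 did not pass. The median log2 fold change was -0.20 (-0.03 over all genes). The shares were 13.0% higher and 34.8% lower, against 20.6% and 21.7% of all genes tested. Eed, the core subunit that stimulates the H3K27 methyltransferase, had 157 and 154 CPM in medium and 317 and 311 CPM with TL1A (1.02, SE 0.07, adjusted p = 3.38e-05). It rose in the libraries in which Ezh1 fell. Aebp2, an accessory subunit of the same complex, rose from 3.74 and 2.7 CPM to 32.2 and 28.4 CPM (3.23, SE 0.22, adjusted p = 2.87e-05), summed over 3 rows. Cbx6 and Cbx8, which encode chromodomain readers of methylated H3K27, fell from 114 and 108 CPM to 39.2 and 39.1 CPM (-1.50, SE 0.10, adjusted p = 3.07e-05) and from 19.0 and 21.9 CPM to 9.95 and 10.3 CPM (-1.01, SE 0.18, adjusted p = 0.00332). Without medium replicate 2, 5 fell, and without TL1A replicate 2, 3 fell.

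In the list of subunits of HDAC corepressors 3 of 21 tested genes rose, 7 fell and 11 did not pass (median -0.25), or 47.6% called against 42.3% of all genes. Of the NuRD helicase genes, Chd3 fell from 65.0 and 66.6 CPM to 29.0 and 28.8 CPM (-1.19, SE 0.12, adjusted p = 0.000195), and Chd4 rose from 309 and 315 CPM to 481 and 397 CPM (0.49, SE 0.10, adjusted p = 0.00563; 0.0727 with library size alone, and 1.11e-05 to 0.0727 over all alternatives). Mta3, of the same complex, fell by 0.96 (SE 0.16), and Tbl1xr1, an exchange factor of the NCoR complex, rose from 181 and 165 CPM to 294 and 307 CPM (0.80, SE 0.08, adjusted p = 0.000191). The count of lower genes was 2 to 4 without 1 library: 4 without either medium library, 3 without TL1A replicate 1 and 2 without TL1A replicate 2. Of acetyltransferase subunits 24.2% were called, against 42.3% of all genes: 1 of 33 rose (Jade2, 0.95, SE 0.12), 7 fell, among them Tada2a (-0.94, SE 0.19), Msl1 (-0.47, SE 0.09) and Ing4 (-0.40, SE 0.08), and 25 did not pass. Without TL1A replicate 2, 3 of this list fell.

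In the list of subunits of COMPASS, the complex of the H3K4 methyltransferases, 11 genes were tested and 9.09% called, against 42.3% of all genes. Of these, 1 fell (Psip1, -0.41, SE 0.12, adjusted p = 0.0252), none rose in the edgeR test (2 at an unadjusted p under 0.05, and 1 in DESeq2) and 10 did not pass. The Psip1 call was lost without medium replicate 2 (0.158) or either TL1A library (0.102 without replicate 1, 0.0889 without replicate 2; 0.00297 to 0.158), and 1 gene rose without medium replicate 1.

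Of readers and partners of DNA methylation, 1 of 15 tested rose, 6 fell and 8 did not pass (median -0.35, against -0.03 over all genes), or 46.7% called against 42.3% of all genes. Mbd2, which binds methylated CG pairs and recruits NuRD, had 175 and 174 CPM in medium and 83.5 and 82.8 CPM with TL1A (-1.07, SE 0.08, adjusted p = 5.75e-05). Hells, a remodeller needed for DNA methylation, had 101 and 102 CPM in medium and 49.8 and 45.4 CPM with TL1A (-1.09, SE 0.11, adjusted p = 0.000169). Zfp57, which protects imprinted methylation, fell by 1.57 (SE 0.19), with every read on its non-coding row. Uhrf2, a reader of modified cytosine, rose from 72.2 and 77.2 CPM to 113 and 129 CPM (0.69, SE 0.11, adjusted p = 0.00177), while its paralog Uhrf1 had 0 reads over 4 rows. Without medium replicate 2, 2 of these genes rose.

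Of other histone modifying enzymes outside the naming rule, 2 of 24 tested rose, 10 fell and 12 did not pass (median -0.29). The shares were 8.33% higher and 41.7% lower, against 20.6% and 21.7% of all genes. Padi2, which converts arginine to citrulline, fell from 2480 and 2507 CPM to 1169 and 1109 CPM (-1.13, SE 0.06, adjusted p = 7.21e-06). Smyd3, a lysine methyltransferase gene, fell by 1.18 (SE 0.10). Its relative Smyd5 rose by 0.93 (SE 0.12), and Hat1, which acetylates newly made histone H4, rose by 0.60 (SE 0.09). Without TL1A replicate 2, 5 fell.

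Genes that supply the enzymes' cofactors gave 6 increases and 3 decreases among 16 tested, and 7 did not pass (median -0.22). The shares were 37.5% higher and 18.8% lower, against 20.6% and 21.7% of all genes. Mat2a, which makes the methyl donor S-adenosylmethionine, rose from 375 and 382 CPM to 549 and 521 CPM (0.50, SE 0.07, adjusted p = 0.000844). Nampt, rate-limiting for NAD salvage, rose from 52.3 and 49.4 CPM to 104 and 93.3 CPM (0.95, SE 0.11, adjusted p = 0.000415). Acss2, which makes acetyl-CoA from acetate, fell from 9.24 and 9.81 CPM to 2.7 and 2.76 CPM (-1.80, SE 0.25, adjusted p = 0.0011), and D2hgdh, which clears an inhibitor of the Kdm and Tet enzymes, fell by 0.67 (SE 0.12). Without either medium library 3 rose, and without TL1A replicate 1, 2 rose.

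**Figure D5:**
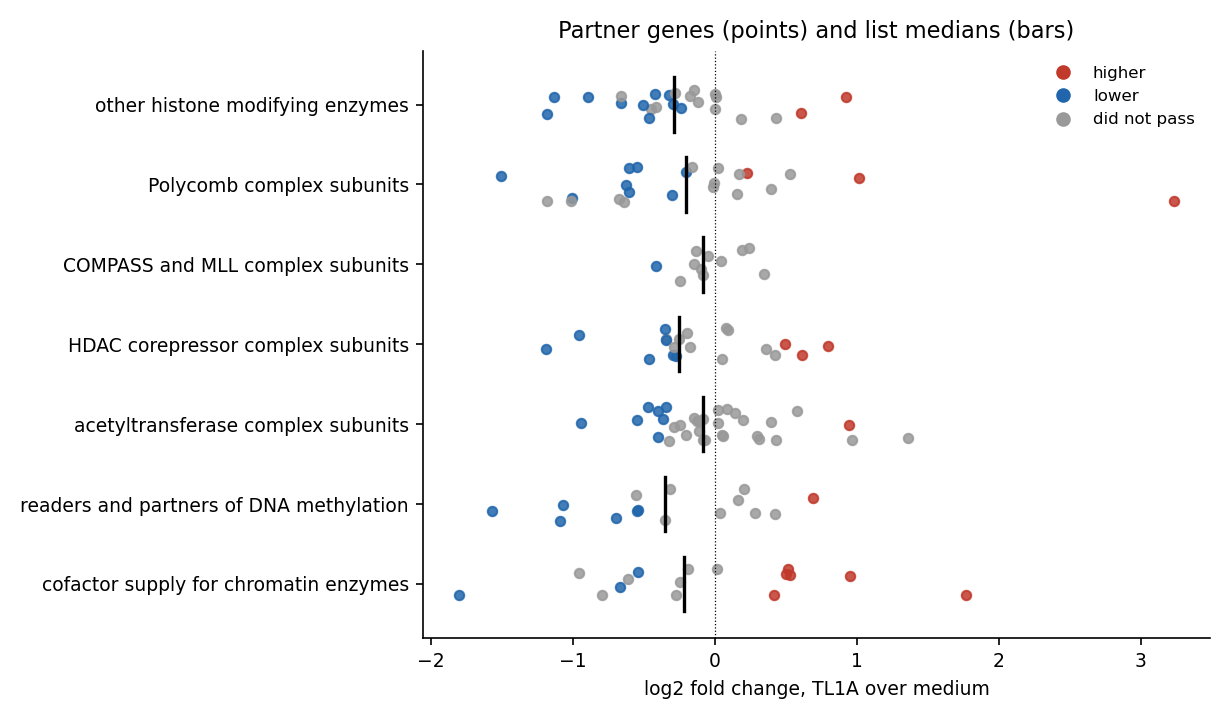
The log2 fold change of TL1A over medium (horizontal axis) of each tested partner gene, by list (vertical axis; points are spread up and down within a list); red rose, blue fell, grey did not pass, and black bars are list medians. The medians lie between -0.35 and -0.08, and Aebp2 at 3.23 is the farthest point to the right.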

How the data were processed

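RNA was profiled in 4 libraries of sorted mouse ILC3s, 2 in medium and 2 with TL1A; cDNA came from the SMARTer Ultra Low Input RNA Kit, per the labels' protocols. CASAVA, STAR and HTSeq on build mm9 are named per the submitters' processing notes; their versions, the annotation release and the strand setting are not stated there. The authors deposited integer counts of reads for each RefSeq transcript, with 5 HTSeq summary rows (69.9% to 71.3% of the column totals), which stayed out of library sizes and tests. Without a known strand setting, antisense and overlapping genes cannot be told apart.

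Of 33535 rows, 33154 were matched to symbols through RefSeq (GRCm38.p6, names and promoter windows only) and summed per gene; the rest held 0.851% to 0.9% of assigned reads. The fit used edgeR 4.0.16 in R 4.3.3 (filterByExpr with a minimum count of 10, TMM, glmQLFTest, group only, two-sided). It was also run on simulated counts in which few genes changed, equally up and down. Many genes changed in these data, so that run cannot show whether the scaling holds here. SE is the log2 fold change over the root of F. Non-overlap is a description: 2 against 2 libraries cannot go below p = 0.333 in an exact permutation test. Alternatives included DESeq2 1.42.0. The members, classes and lists were chosen with earlier results of these data known. Named are all members that passed, the H3K27 group, Dnmt and Tet genes and up to 4 partners per list with the smallest p; other members were named after their values were seen.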

Additional observations from a re-analysis of the deposited data

How the results depend on the processing

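The 19 enzyme genes that passed kept their direction under all 11 alternatives, and 6 of them passed under every one. With library size alone 1310 genes rose and 3475 fell in all, and 1 and 22 enzyme genes; 0 demethylase genes rose, 1 methyltransferase gene rose and 6 fell, and 2 acetyltransferase, 4 deacetylase and 3 arginine methyltransferase genes fell. In the partner lists 6 COMPASS, 11 HDAC corepressor, 14 acetyltransferase complex and 6 cofactor genes then fell, and 1 HDAC corepressor and 2 cofactor genes rose. That scaling also turned the log2 fold change of Hdac1 (-0.048), Kat6a (-0.15), Kdm4d (-0.0082), Kdm5b (-0.21), Kdm6a (-0.24), Prmt5 (-0.23, adjusted p = 0.0288 in edgeR; 0.0288 to 0.99 over all alternatives), Setd1a (-0.25), Setd1b (-0.16) and Tet2 (-0.20), none of which had passed. With RLE size factors 2 demethylase genes fell, 1 COMPASS and 2 acetyltransferase complex genes rose, and Kdm2a (0.022), Kdm8 (0.017) and Prmt6 (0.017) turned. With DESeq2 0 arginine methyltransferase genes and 4 HDAC corepressor genes fell, 1 COMPASS gene rose, and Kdm2a (0.022), Kdm8 (0.017) and Prmt6 (0.015) turned. Without the low-count filter Kdm2a was 0.0026. The row with the most reads gave the same 19 calls. The cause of these shifts was not tested.

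The labels do not say that replicate numbers pair the libraries, and deviations of same-numbered libraries had a correlation of -0.105 across genes. With the replicate block 13 of the 19 calls remained (Kdm3b, Kdm5a, Kdm6b, Prmt9, Setd2 and Setd4 did not): 2 demethylase, 0 arginine methyltransferase, 0 COMPASS and 3 HDAC corepressor genes fell, and Kdm8 was 0.0030. With the pairing crossed, an alternative chosen after seeing the data, 5 methyltransferase genes fell, 1 deacetylase, 1 COMPASS, 3 acetyltransferase complex and 3 DNA methylation genes rose, and Kdm8 was 0.0030.

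Leaving out 1 library at a time, 7 to 12 enzyme genes fell, with 2 to 3 demethylase, 2 to 5 methyltransferase, 0 to 1 sirtuin, 0 to 0 arginine methyltransferase and 0 to 1 Tet genes lower and 0 to 1 deacetylase genes higher. In the partner lists 5 to 8 other histone modifying enzymes, 3 to 7 Polycomb, 0 to 1 COMPASS, 2 to 4 HDAC corepressor and 3 to 7 acetyltransferase complex genes fell, and 0 to 1 COMPASS, 1 to 2 DNA methylation and 2 to 4 cofactor genes rose. The log2 fold change crossed 0 for Kat6a (-0.12 to 0.33), Kdm2a (-0.033 to 0.043), Kdm4a (-0.15 to 0.85), Kdm4c (-0.066 to 0.88), Kdm5d (-0.091 to 0.039), Kdm6a (-0.12 to 0.21), Kdm8 (-0.18 to 0.22), Prmt6 (-0.49 to 0.36) and Setd1a (-0.0016 to 0.025), none of which had passed with all 4 libraries.

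With 2 libraries a group, 10 of the 19 calls were lost without at least 1 single library, and leaving 1 out leaves a lone library that is assumed to vary like the others. Genes with several rows had few unique reads at the depth at which genes with 1 row were tested; other depths were not tested.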
